A study of Drosophila melanogaster with 3 samples.

Results

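The regions described here are the dH1K27me2 peaks on 3RHet, the sequence that holds heterochromatic scaffolds assigned to the right arm of the third chromosome but lying outside its assembled part. All peaks listed on that sequence were taken, whatever their width or score, which gave 341 of the 4751 peaks in the list. The chromatin came from wild-type S2 cells, an untreated embryo-derived Drosophila melanogaster cell line. Chromatin immunoprecipitation with sequencing (ChIP-seq) was made in 2 samples with a home-made rabbit antibody to dH1K27me2, and 1 input sample received no antibody. The authors' list was called on merged immunoprecipitations against the input, so no value has a replicate error, no test between groups could be made, and the read depth is unknown.

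dH1 is the linker histone of Drosophila, which binds the nucleosome where DNA enters and leaves it and helps to fold chromatin. dH1K27me2 is dH1 that carries a pair of methyl groups on lysine 27. Heterochromatin around the centromeres is compact, rich in transposons and other repeats, and classically known for H3K9 methylation and the protein HP1. Repeats make short reads hard to place, and how the authors treated reads with several possible positions is not given in the sources used here.

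Peaks were present along the whole of 3RHet, from a peak at 3RHet:2-962 to a peak at 3RHet:2488201-2492047 (dm3, 1-based). Over the 2492 kb from the first base to the end of the last peak, peaks covered 995.2 kb, or 39.9%, at 136.8 peaks per Mb. The first peak was also the narrowest, at 961 bp with a score of 143.81, and it abutted the start of the sequence. On either side of the midpoint the covered share was nearly equal, at 39.8% on the left with 159 peaks and 40.1% on the right with 182 peaks.

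At a finer scale the mark was uneven. Across 25 windows of 100 kb the covered share ran from 19.1% to 69.9% with a median of 40.6%, and every such window held at least 6 peaks. Across 50 windows of 50 kb it ran from 0% to 82.4%, and 1 window, from 450 to 500 kb, held no covered base. Windows with more covered bases also held more peaks (Spearman's rho 0.56 across the 25 windows) and wider ones (rho 0.62 with the median width). Across the windows of 50 kb rho was 0.74 with the number of peaks and 0.37 with the median width, the latter in windows that held a peak. These values describe this scaffold and are not independent of how coverage is built up.

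The 3 most covered windows of 100 kb were those from 700 to 800 kb at 69.9%, from 600 to 700 kb at 59.0% and from 2100 to 2200 kb at 58.1%. The first and the second belong to a stretch from 500 to 800 kb. Peaks there were not more frequent than elsewhere but were wider and higher in score at the median. That stretch had 137 peaks per Mb, and the rest of the scaffold also had 137. Its 41 peaks had a median width of 4062 bp (95% order-statistic interval 2819 to 5180 bp), against 2176.5 bp (1976 to 2336 bp) for the other 300. Their median score was 565.95 (interval 308.96 to 653.91), against 183.7 (154.89 to 203.58). The intervals do not overlap, but the stretch was picked out after its values were seen, so the contrast is a description. Nor was the stretch uniform. In its window from 750 to 800 kb the medians of 7 peaks were 1956 bp and 197.3. Its window from 500 to 550 kb was covered to 30.1%, below the median of 37.9% across windows of 50 kb.

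The 3 least covered windows lay from 300 to 400 kb at 19.1%, from 1000 to 1100 kb at 20.2% and from 900 to 1000 kb at 23.6%. Their sparse coverage took different forms. From 300 to 400 kb only 6 peaks were present and an unmarked stretch of 53.7 kb took up much of the window. From 900 to 1100 kb there were 20 peaks, or 100 per Mb. Their median width was 1684 bp (order-statistic interval 1413 to 2568 bp) and their median score 98.1 (81.98 to 266.73). Both medians were below those of the whole scaffold, 2280 bp and 195.78, but the intervals include them. In the window from 950 to 1000 kb the medians of 4 peaks were higher, at 2582 bp and 317.05. Unmarked stretches of 31.5 and 30.3 kb also lay from 900 to 1100 kb, so that low coverage there went with fewer peaks and with long gaps. The window from 1300 to 1400 kb differed, since it held 20 peaks in 100 kb and yet was covered only to 31.8%, with a median width of 1426 bp and no score above 261.8.

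**Figure D1:**
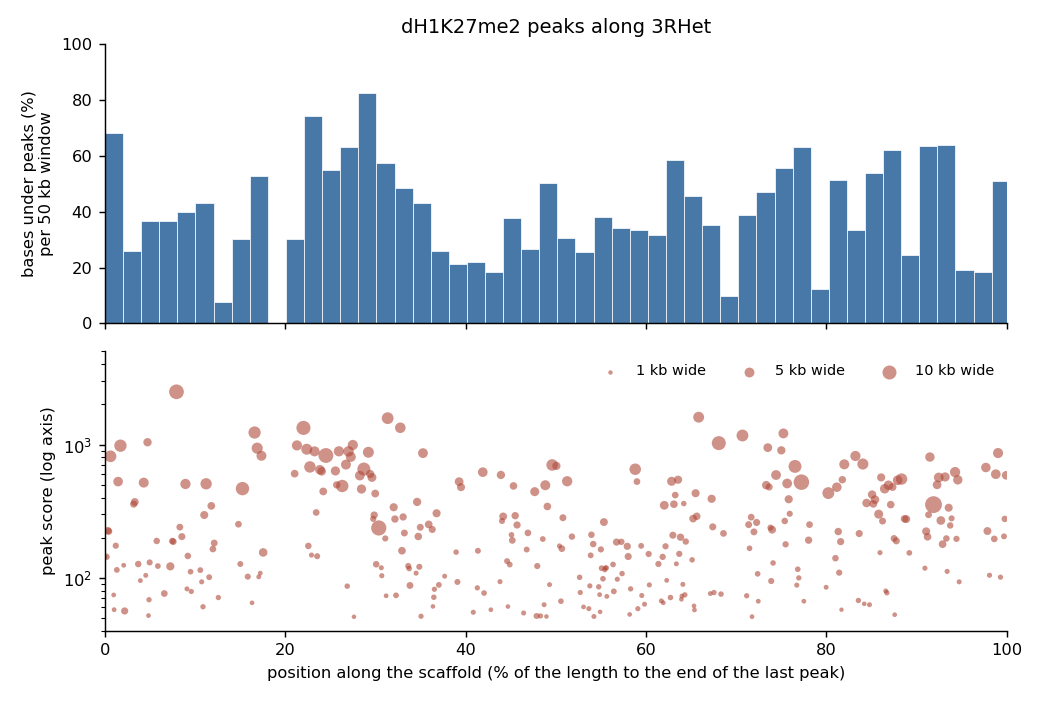
The upper panel shows the percent of bases under dH1K27me2 peaks in windows of 50 kb along 3RHet, and the lower panel shows the score of each of the 341 peaks on a log axis, with point area in proportion to width. The horizontal axis is the percent of the length to the end of the last peak. Coverage reaches 82.4% in the window from 700 to 750 kb and falls to 0% from 450 to 500 kb, while peaks of low score occur along the whole sequence.

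Most peaks had a close neighbour. The 340 gaps between neighbouring peaks had a median of 1188 bp (95% order-statistic interval 870 to 1466 bp), an interquartile range of 278 to 4632 bp and a range of 1 to 83522 bp. In all, 160 gaps, or 47.1% (95% Wilson interval 41.8 to 52.4%), were shorter than 1 kb and 38 were shorter than 100 bp. In 5 cases fewer than 10 bp lay between peaks. The extreme case was a gap of 1 bp between a peak of 5297 bp with a score of 992.16, which ended at 687365, and a peak of 1036 bp with a score of 50.93, which began at 687367. Separate sites and pieces of a common enriched domain cannot be told apart from the list alone.

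Joining peaks less than 1 kb apart turned the 341 peaks into 181 regions. Of these, 100 were lone peaks, 40 were pairs, 21 were triplets and 20 held 4 peaks or more, up to 8. The 241 peaks with a neighbour within 1 kb made up 70.7% of the peaks (95% Wilson interval 65.6 to 75.3%) and 72.7% of the marked bases. Peaks in such runs and lone peaks had overlapping intervals in size, with a median width of 2336 bp (order-statistic interval 2150 to 2568 bp) against 2126 bp (1709 to 2424 bp). Their median scores were 201.5 (178.2 to 236.5) and 173.6 (125.6 to 239.9), with overlapping intervals. The highest-scoring peak of the scaffold was a lone one.

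The 5 longest runs were each covered to between 93.0% and 95.5%. The longest spanned 38976 bp at 3RHet:2267436-2306411 and consisted of 7 peaks with scores from 202.98 to 805.3. A run of 8 peaks spanned 29974 bp at 3RHet:735573-765546, with scores from 103.63 to 565.95. A run of 5 peaks spanned 27913 bp at 3RHet:543278-571190 and reached a score of 1332.39. The other two were runs of 6 peaks over 25146 bp at 3RHet:663257-688402 and of 4 peaks over 24494 bp at 3RHet:591513-616006. Except for the longest, these runs lay in the stretch from 500 to 800 kb.

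High and low scores often occurred side by side, and the rank of a peak's score said little about that of the next. High scores were still more frequent in the stretch from 500 to 800 kb, which was picked after its values were seen. There 51.2% of peaks scored at least 500 (95% Wilson interval 36.5 to 65.7%), against 16.3% of the rest (12.6 to 20.9%). Across the 340 neighbouring pairs Spearman's rho was 0.12 for score and 0.06 for width, and it was 0.11 for score in the 160 pairs less than 1 kb apart. These pairs share peaks and are not independent. Of the 84 peaks with a score under 100, 56 (66.7%, 95% Wilson interval 56.1 to 75.8%) had a neighbour within 1 kb. In 52 of these cases such a neighbour had a higher score. That count follows largely from the choice of low scores, since 75.4% of all peaks on 3RHet scored at least 100. The share with a neighbour within 1 kb among the 257 peaks that scored 100 or more was 72.0% (66.2 to 77.1%), an overlapping interval.

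Unmarked sequence was concentrated in a small number of long gaps. The 40 gaps of at least 10 kb were 11.8% of the gaps and held 917.8 kb, or 61.3%, of the 1497 kb between peaks. The 14 gaps of at least 20 kb alone held 36.8%. By contrast, the 160 gaps under 1 kb held 53.5 kb in all, and filling them raised the covered share only to 42.1%. Positions of runs of unknown bases in the dm3 sequence were not used here, so an unmarked stretch may hold sequence to which no read could map.

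**Figure D2:**
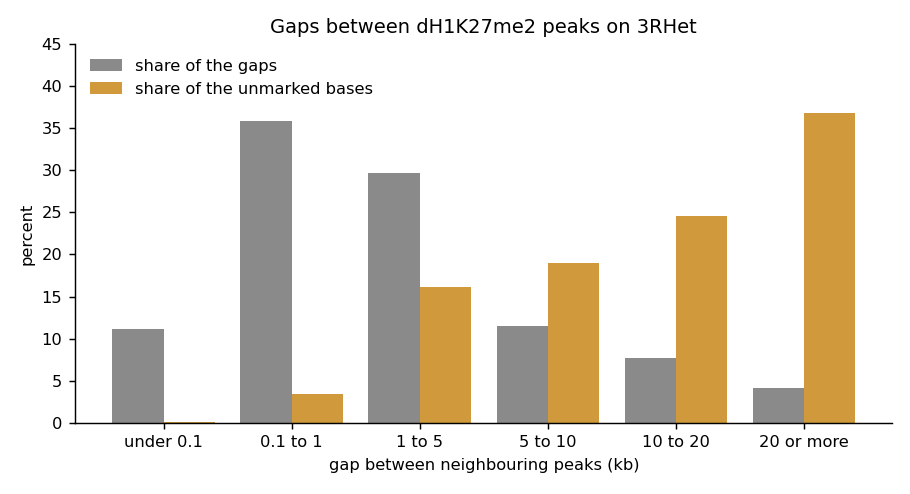
For each class of gap length in kb, the grey bar gives the share of the 340 gaps on 3RHet and the ochre bar the share of the 1497 kb between peaks. Gaps of 0.1 to 1 kb are the most frequent class at 35.9% but hold 3.47% of the unmarked bases, whereas gaps of 20 kb or more are 4.12% of the gaps and hold 36.8%.

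The 5 longest gaps together held 299.8 kb. The longest ran over 83522 bp at 3RHet:438954-522475 and reached into the left end of the stretch from 500 to 800 kb. Its left neighbour scored 154.89 and its right neighbour 604.22. The second ran over 70889 bp at 3RHet:2360875-2431763, between peaks that scored 93.21 and 672.07. The third, of 53684 bp at 3RHet:313912-367595, lay between scores of 71.07 and 252.12. The fourth, of 47673 bp at 3RHet:1710194-1757866, ended at a peak of 7201 bp with a score of 1168.38. The fifth, of 44056 bp at 3RHet:1947959-1992014, lay between scores of 250.54 and 84.85. Long gaps were therefore bordered by low-scoring and by high-scoring peaks.

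Peaks beside a gap of at least 10 kb were lower in score and narrower at the median than the others, within overlapping intervals. The 77 such peaks had a median width of 2114 bp (order-statistic interval 1680 to 2435 bp) and the other 264 a median of 2331.5 bp (2138 to 2555 bp). The median scores were 140.2 (108.3 to 195.8) and 206.5 (185.2 to 239.9).

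Peak widths, the end minus the start in the list, ran from 961 to 14507 bp with a median of 2280 bp (order-statistic interval 2094 to 2454 bp; interquartile range 1484 to 3480 bp). Widths were skewed, so that the 34 widest peaks, of 5316 bp or more, held 26.4% of the marked bases. Scores ran from 50.93 to 2486.08 with a median of 195.78 (173.25 to 222.27; interquartile range 101 to 442.7). Of the 341 peaks, 257 scored at least 100, 70 scored at least 500 and 10 scored at least 1000. Of all peaks in the list, 7.18% (95% Wilson interval 6.48 to 7.95%) lay on 3RHet. Among the 500 highest-scoring peaks of the list 59 lay there, or 11.8% (9.26 to 14.9%), but among the 100 highest only 7 did, or 7% (3.43 to 13.7%).

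Score and width rose together in rank, with Spearman's rho of 0.91 across the 341 peaks. The median score was 75.4 for the 86 peaks under 1500 bp, 161.1 for the 108 of 1500 to under 2500 bp, 304.8 for the 79 of 2500 to under 4000 bp and 653.1 for the 68 of 4000 bp or more. All 34 of the widest peaks scored above 137.75, the median of the whole list, with 236.46 as the lowest. This count adds little, since score and width rose together and the median score of 3RHet was itself 195.78. The score is that of the peak caller, and how far its calculation ties it to width is not given in the sources used here.

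The highest score, 2486.08, belonged to a peak of 11099 bp at 3RHet:191955-203053, whose neighbours were 2183 and 2474 bp away. Next came a peak of 6051 bp at 3RHet:1637403-1643453 with a score of 1602.86, which was followed by an unmarked stretch of 28603 bp. A peak of 7113 bp at 3RHet:777520-784632 scored 1575.91 and lay near the right end of the densely covered stretch. The peak at 3RHet:813124-818826 scored 1335.68 over 5703 bp, and that at 3RHet:543278-553439 scored 1332.39 over 10162 bp. The peak at 3RHet:409452-417157 scored 1230.04 over 7706 bp. That at 3RHet:1872115-1877110 scored 1211.11 over 4996 bp. The remaining peaks above 1000 were at 3RHet:1757867-1765067, with 1168.38, at 3RHet:115651-119238, with 1039.79, and at 3RHet:1691030-1701077, with 1024.19. The 10 highest scores were thus spread from 115651 to 1877110 along the sequence, and none lay nearer to its right end.

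The widest peaks were mostly not the highest in score. The widest spanned 14507 bp at 3RHet:2282129-2296635 with a score of 353.83 and lay inside the longest run. The next spanned 12332 bp at 3RHet:1918163-1930494 with a score of 521.64. A peak of 11775 bp at 3RHet:750566-762340 scored 236.46, and a peak of 11286 bp at 3RHet:604721-616006 scored 826.98. The fifth in width was the highest-scoring peak described above. At the other end, the 5 lowest scores lay between 50.93 and 51.41, in peaks of 1036 to 1414 bp, and each of these peaks had a neighbour within 478 bp.

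The assembled arm 3R, which continues the same chromosome arm, was almost free of peaks. It held 44 peaks over 27.0 Mb measured to its last peak, or 1.63 per Mb, and 0.374% of its bases were covered. The covered share of 3RHet was 107 times as high and its peak density 84.1 times as high. In absolute terms the scaffold carried 995.2 kb under peaks and the arm 101 kb, although the arm is the longer sequence by far. The median gap was 1188 bp on 3RHet and 115.5 kb on 3R. With 1 pooled list these contrasts have no replicate and were not tested.

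In windows of 100 kb the arm was covered to at most 14.2%, below each of the 25 such windows of 3RHet, and 246 of the 271 windows on 3R held no covered base. In windows of 50 kb the highest share on 3R was 19.1%, which 43 of the 50 windows of 3RHet exceeded and 7 did not. Among windows of the same length as 3RHet started at each peak of 3R, the fullest held 22 peaks and was covered to 1.83%. Of these peaks, 21 lay in a cluster at 3R:23133792-23694176, where 7.40% of 560.4 kb was covered, with scores from 51.18 to 196.92. The first stretch of 3R of the same length, which faces the centromere, held 5 peaks and was covered to 0.557%. Its first peak began at 582024, and the arm carried no peak before it.

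Single peaks on the arm could reach scores in the upper range of those on the scaffold. The highest score on 3R was 1418.76, in a peak of 5487 bp at 3R:872893-878379, a score that 3 peaks of 3RHet exceeded. It was followed by 992.35 at 3R:4396110-4399571, 591.12 at 3R:752675-757412, 543.17 at 3R:13859236-13865894 and 459.5 at 3R:19677121-19683522. Most peaks of the arm had low scores, however. The median score on 3R was 93.1 (order-statistic interval 74.2 to 118.4) and the median width 1707 bp (1446 to 2022 bp), and both intervals lie below those of 3RHet. Because peaks are not independent replicates, this describes the list and is not a test. Scores of at least 500 were reached by 4 of 44 peaks on 3R (9.09%, 95% Wilson interval 3.59 to 21.2%) and by 70 of 341 on 3RHet (20.5%, 16.6 to 25.1%), with overlapping intervals.

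Within each class of width the scores of the arm's peaks were also lower at the median. Under 1500 bp the median score was 66.7 for 18 peaks on 3R and 75.4 for 86 on 3RHet. From 1500 to under 2500 bp it was 109.3 for 14 peaks and 161.1 for 108. From 2500 to under 4000 bp it was 186 for 6 peaks and 304.8 for 79, and from 4000 bp it was 501.3 for 6 peaks and 653.1 for 68. In each class the ranges overlapped. The last class has no upper limit, and the widest peak was 6659 bp on 3R and 14507 bp on 3RHet. Widths within a class were therefore not matched.

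**Figure D3:**
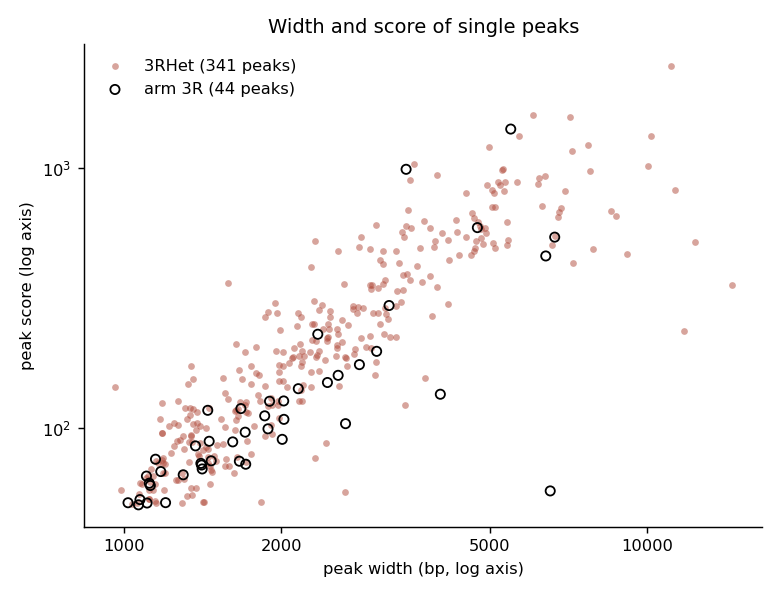
Width in bp against score for each peak, both on log axes, with the 341 peaks of 3RHet as filled red points and the 44 peaks of the arm 3R as open black circles. The 2 sets share a common trend, most circles lie at low width and low score, and the widest peaks of 3RHet, up to 14507 bp, lie below the scores of some narrower ones.

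The other Het sequences compared, 3LHet and 2RHet, were much more like 3RHet than the arm was. On 3LHet, the matching scaffold of the left arm, 293 peaks covered 42.4% of 2551 kb, and on 2RHet 367 peaks covered 36.7% of 3275 kb. The median gap was 1447.5 bp on 3LHet (order-statistic interval 969 to 1953 bp) and 1273 bp on 2RHet (978 to 1666 bp), and both intervals overlap that of 3RHet. The longest gap was 95.6 kb on 3LHet and 125.7 kb on 2RHet, against 83.5 kb on 3RHet. Gaps of at least 10 kb held 62.8% and 72.7% of the unmarked bases there.

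3RHet had more peaks per Mb than these scaffolds, at 136.8 against 114.9 on 3LHet and 112.1 on 2RHet, but its peaks were smaller at the median. The median width was 2682 bp on 3LHet (2443 to 2969 bp) and 2600 bp on 2RHet (2322 to 2796 bp), whose intervals overlap that of 3RHet. Peaks of at least 5 kb made up 12.9% of 3RHet (44 peaks, 95% Wilson interval 9.75 to 16.9%), 22.5% of 3LHet (66 peaks, 18.1 to 27.6%) and 17.7% of 2RHet (65 peaks, 14.1 to 21.9%). The interval of 3RHet lies below that of 3LHet and overlaps that of 2RHet. Peaks of a pooled list are not independent replicates, so these intervals describe the list and test no difference between scaffolds. Median scores were 241.65 on 3LHet (215.79 to 299.81) and 235.75 on 2RHet (197.85 to 274.05), with intervals that overlap that of 3RHet.

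**Figure D4:**
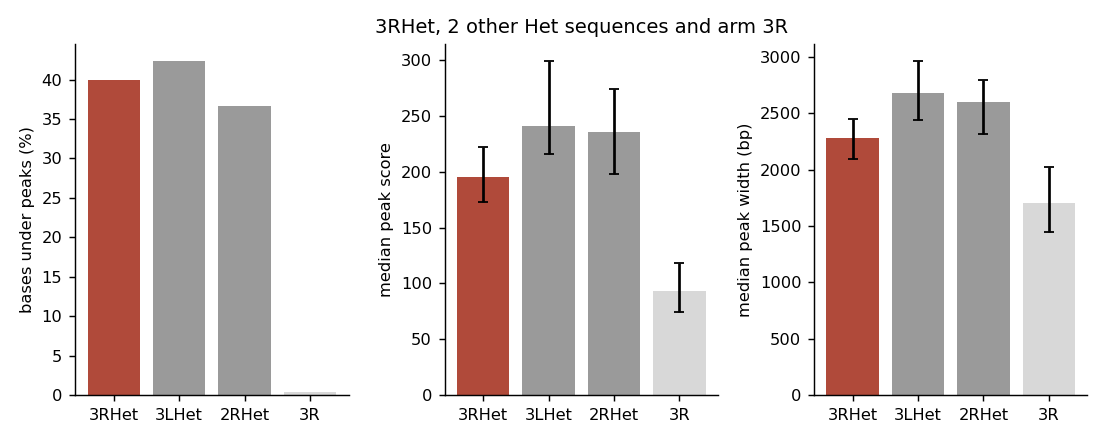
Bars give the percent of bases under peaks, the median peak score and the median peak width in bp for 3RHet, 3LHet, 2RHet and the arm 3R. Error bars on the medians are 95% order-statistic intervals over peaks, and the covered share has none. The Het sequences shown are covered to between 36.7% and 42.4%, and 3R to 0.374%.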

How the data were processed

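The labels describe 2 immunoprecipitations of dH1K27me2 and 1 input from S2 cells. Per the submitters' processing notes, FastQC 0.10.1, Bowtie 0.12.5, SAMtools 0.12.9, MACS 1.4 and 1.4.2, featureCounts and the build dm3 were used, with no role or order stated. The authors deposited 1 peak list, whose name says that the immunoprecipitations were merged and set against the input. Whether every run of the first immunoprecipitation entered the merge is not given in the sources used here. The score deposited by the authors for each peak is that peak's own value. Its formula is not stated, so it served only to rank and describe peaks and is not a measured level of the mark. The lowest scores were 50.93 on 3RHet, 50.35 on 3R, 50.24 on 3LHet and 50.48 on 2RHet, so scores on these sequences start just above 50.

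Peaks were taken by sequence name. Length ran from the first base to the end of the last peak, because no sequence lengths were used. Gaps, widths, coverage and runs were computed with Python 3.11.15, numpy 2.4.6, pandas 2.3.3 and scipy 1.17.1, and tested on simulated data. Shares have 95% Wilson intervals, and medians have 95% intervals from binomial order statistics. These cover only the counting of peaks, which are not independent. The named regions followed a rule (the 10 highest scores, 5 widest, 5 lowest scores, 5 longest gaps, 5 longest runs, the 3 most and 3 least covered windows of 100 kb, and the 5 highest scores on 3R). The members and lists were chosen with earlier results of these data known. Genes were not assigned, because the annotation at hand is of another build.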

Additional observations from a re-analysis of the deposited data

How the results depend on the processing

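Of 40 alternative values, 28 stayed near the value as deposited and 12 moved. Only the rank correlation and the ratio of covered shares have a direction that could turn, and neither turned. The other values are positive by construction. A median counted as moved outside its 95% interval, a density beyond 1.5 times and other values beyond 10%. Keeping only peaks with a score of 100 or more moved the covered share to 35.3%, the median gap to 1926 bp, the median width to 2761 bp, the median score to 269, the share of unmarked bases in long gaps to 70.6% and the ratio of covered shares between 3RHet and 3R to 140.5. Joining peaks less than 1 kb apart moved the density to 72.6 per Mb, the median gap to 4100 bp and the median width to 3730 bp. By construction it removes every short gap. A long gap defined as 5 kb or more held 80.3% of unmarked bases, and as 20 kb or more 36.8%. Leaving out the densest 1 Mb of 3R moved the ratio of covered shares to 174.7. Measuring from the first peak, and each side of the midpoint alone, moved no value. Leaving out the stretch from 500 to 800 kb, an alternative chosen after seeing the data, gave a covered share of 37.1%, a median width of 2176.5 bp, a median score of 183.7 and a rho of 0.90. No paired analysis was possible because the authors merged the immunoprecipitations before calling peaks, and for the same reason no replicate could be left out.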
